A study of Mus musculus with 9 samples.

Results

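Intermediate filament genes were examined in mouse embryonic stem cells (ESCs) in which a forced dimer of the transcription factor E2A was induced. The set holds 10 genes, taken by name from the 47729 genes of the deposited expression table: the keratins Krt7, Krt8, Krt18 and Krt19, then Vim and Nes, then Prph, Nefl, Nefm and Ina. All 10 passed the filter on low values (a mean FPKM of at least 0.1 over all libraries), which left 17951 genes to be tested. The cells carried a doxycycline (dox)-inducible transgene in which FLAG-tagged mouse E47, a splice product of the E2A gene, is linked to a further copy of E47, and the line was made by inducible cassette exchange. They were grown in LIF/serum, a medium that holds ESCs undifferentiated. Untreated cells (0 h) were compared with cells given dox at 1 µg/ml for 18 h or 24 h, with 3 replicates at each time point and 9 libraries in all. All 3 groups carry the transgene, so dox alone and the transgene cannot be told apart from these libraries. The comparisons ask which genes respond early to E2A homodimers.

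Intermediate filaments are one of the fibre systems of the cytoskeleton, and each cell type builds them from its own set of proteins. Simple epithelia and the outer layer of the early embryo use keratins, which assemble as obligate pairs of a type II protein (Krt7, Krt8) and a type I protein (Krt18, Krt19). Vimentin (Vim) is the filament of mesenchymal and many cultured cells, and nestin (Nes), which assembles with vimentin, is widely used to recognise neural progenitors. Peripherin (Prph), the light and medium neurofilament subunits (Nefl, Nefm) and α-internexin (Ina) form the filaments of neurons. Undifferentiated ESCs already carry transcripts of several of these families.

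Between 22028363 and 26471569 reads per library fell on genes, and FPKM, fragments scaled to the length of the gene and the mapped reads of the library, allows levels to be compared between genes. Sums of the FPKM of 10 markers of pluripotent cells were 612 to 859 before dox, 562 to 761 after 18 h and 542 to 757 after 24 h, and 0 of the 10 passed both thresholds for a call by limma, edgeR or DESeq2, although by the adjusted p alone limma passed 0 at 18 h and 3 at 24 h, or 7 and 6 with the replicate number held as a block. The 3 moved in opposite directions: Pou5f1 was lower, at 371 FPKM on average before dox and 248 after 24 h (adjusted p = 0.0220), while Nanog (40.6 and 73.4; adjusted p = 0.00735) and Dppa3 (36.1 and 72.2; adjusted p = 0.0420) were higher. Of all genes tested, 2.06% at 18 h and 2.9% at 24 h passed both thresholds by limma. By the adjusted p alone it passed 4.27% as higher and 3.72% as lower at 18 h, and 6.52% and 5.11% at 24 h. With the block these shares were 10.8% and 10.7%, then 13.6% and 12.5%. The libraries numbered replicate 1 stood apart for most of the filament genes at every time point, as set out below, so each result of a member is given also without them where that alters a call. In bulk RNA, fewer cells of a type and less RNA per cell cannot be told apart. Cultures were labelled only by replicate number, and the paper describes the 3 replicates as biological. The p values measure the spread between these libraries.

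E2A binds E-boxes, DNA sites with the letters CANNTG. The 250 bases before the RefSeq transcription start (build GRCm38.p6) were searched for these letters, which read the same on both strands, and 7 of the 10 members had an entry in the promoter table (not Krt19, Nefl or Nefm). CANNTG was in 66.2% of all 32851 windows of this length. Among the members, 4 windows held CANNTG, those of Krt7, Krt8, Krt18 and Ina. For each of them 1 site is given, at 44, 184, 214 and 135 bases before the start in that order, and these are not all the sites of the 4 windows, so no count by the form of the E-box is given. No CANNTG was found in the windows of Vim, Nes and Prph. The windows of Krt7 and Vim lie inside these genes as GENCODE annotates them, and that of Nes reaches past its GENCODE start. In the Krt7 window the first GENCODE exonic base is 168 bases before the RefSeq start, ahead of the site given. A match of letters is a description only, since no binding was measured. These sites are shown with 12 bases on each side, read 5′ to 3′ on the strand of the gene, with the E-box in capitals.
Krt7, chr15:101412347-101412376, plus strand: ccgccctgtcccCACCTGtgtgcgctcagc
Krt8, chr15:102004509-102004538, minus strand: cttcacagggatCAATTGctctctcctgga
Krt18, chr15:102027990-102028019, plus strand: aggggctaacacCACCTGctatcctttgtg
Ina, chr19:47014534-47014563, plus strand: gacggtggcgcgCAGCTGcggtggcactgc

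The upstream sequences of 3 members are shown because Krt8 and Krt18 rose together and Prph moved the other way at 18 h. Each runs from 250 bases before the RefSeq start up to the first exonic base in the GENCODE annotation, which left 110 bases for Krt8 (chr15:102004483-102004592, minus strand), 214 for Krt18 (chr15:102027966-102028179, plus strand) and 250 for Prph (chr15:99054924-99055173, plus strand). Capitals mark the CANNTG within these runs, which are shorter than the windows searched for Krt8 and Krt18.
Krt8: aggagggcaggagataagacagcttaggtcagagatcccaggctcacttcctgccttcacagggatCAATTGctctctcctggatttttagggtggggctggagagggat
Krt18: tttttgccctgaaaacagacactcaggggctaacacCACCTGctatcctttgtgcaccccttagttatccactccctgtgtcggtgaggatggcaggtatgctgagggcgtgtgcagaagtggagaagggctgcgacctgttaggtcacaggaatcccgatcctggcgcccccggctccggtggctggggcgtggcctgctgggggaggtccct
Prph: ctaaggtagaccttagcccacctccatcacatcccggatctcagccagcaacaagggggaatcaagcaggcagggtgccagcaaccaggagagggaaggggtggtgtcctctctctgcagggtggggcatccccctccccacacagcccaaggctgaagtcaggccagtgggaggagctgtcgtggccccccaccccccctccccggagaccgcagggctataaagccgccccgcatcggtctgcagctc

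At 0 h the keratin pair Krt8 and Krt18 was by far the most abundant of the set. Mean FPKM at 0 h was 175±13.8 for Krt8 and 170.1±14.6 for Krt18 (mean±s.d., n=3, as throughout), and the ranges of the pair overlapped. Krt19 (55.1±8.04), Vim (40.2±13.0) and Nes (36.0±7.11) formed the next tier, in which each neighbour in the order overlapped the next. Ina (19.0±3.52) and Nefl (12.9±2.69) overlapped each other, and Prph (9.69±0.977), Nefm (2.17±0.813) and Krt7 (0.597±0.112) followed without overlap. At 18 h the order was the same, with Krt8 now clear of Krt18, and at 24 h Prph and Nefl exchanged places within overlapping ranges.

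After induction the epithelial pair Krt8 and Krt18 rose, Prph fell by 18 h and Nefl was lower at 24 h. A gene counted as called where limma on log2(FPKM+0.1) gave it an adjusted p (Benjamini–Hochberg) no higher than 0.05 and a log2 fold-change of 1 or more in either direction. This scale understates the change of low genes. By both thresholds 1 of the 10 members, Krt8, was called at 18 h and at 24 h, beside 2.06% of all genes tested at 18 h and 2.90% at 24 h. By the adjusted p alone, 2 members were higher (Krt8 and Krt18; 4.27% of all genes) and 1 was lower (Prph; 3.72%) at 18 h. At 24 h the same pair was higher (6.52% of all genes) and Nefl was lower (5.11%). Samples with the same replicate number deviated together, so the result of a model that holds the replicate number as a block is given wherever it changes the call on a member, with counts for the lists, and its adjusted p is written as the blocked adjusted p. With this block 4 members were higher at 18 h (Krt8, Krt18, Vim and Nes; 10.8% of all genes) and 3 were lower (Prph, Nefl and Nefm; 10.7%). At 24 h the same 4 were higher (13.6%) and Nefl and Nefm were lower (12.5%). The balance of all genes depended on the scaling, and their number on single libraries. With single libraries left out, 305 to 819 genes were higher and 199 to 730 lower by the adjusted p alone at 18 h, and 468 to 1037 were higher and 313 to 840 lower at 24 h. With median centring of the libraries 623 genes were higher and 841 lower by the adjusted p alone at 18 h, in place of 766 and 667, and 839 and 1598 at 24 h, in place of 1171 and 917. By both thresholds 319 were higher and 221 lower at 24 h, in place of 371 and 150. The members that passed were those named for the fit without the block. The median log2 fold-change of the 10 members was 0.27 at 18 h and 0.29 at 24 h, against a median of all genes tested that lay within 0.01 of 0 in both comparisons.

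**Figure D1:**
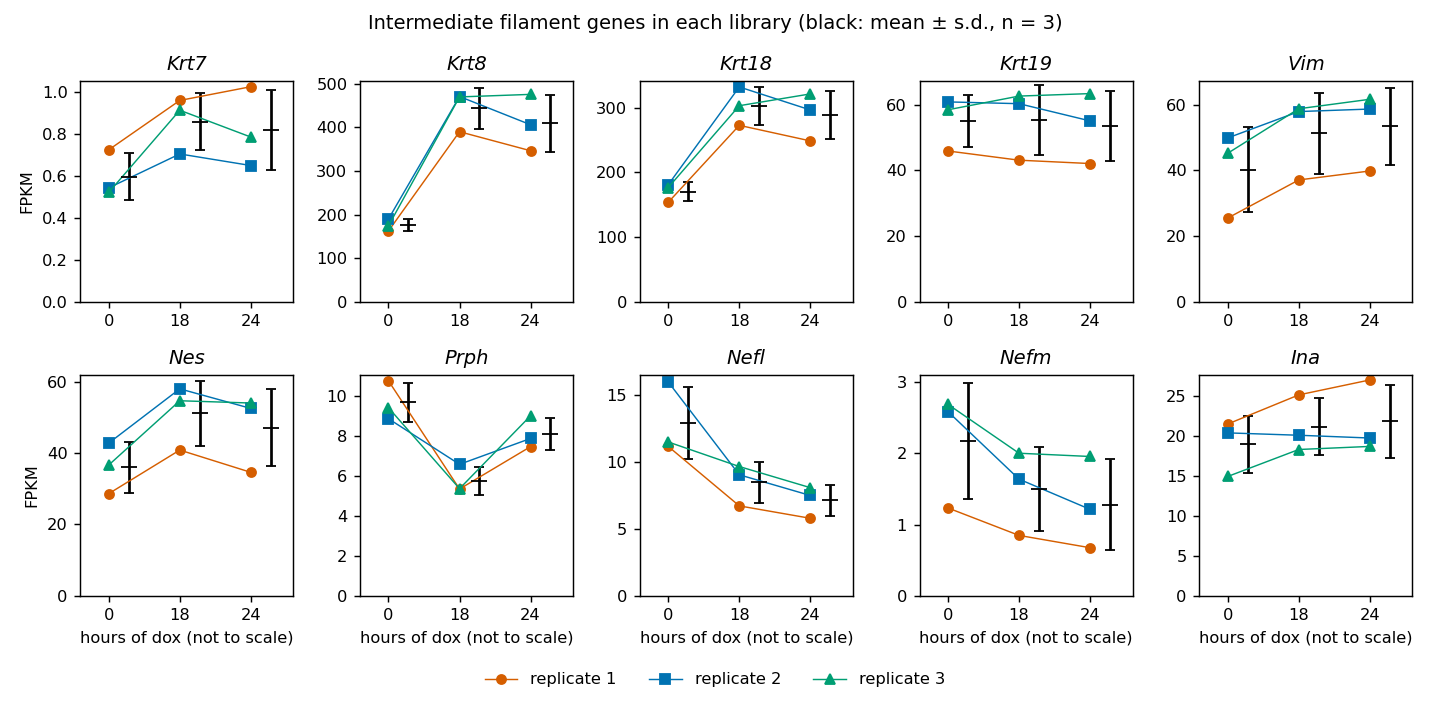
FPKM of each of the 10 members (vertical axis, a separate linear scale from 0 for each gene) at 0, 18 and 24 h of dox (horizontal axis). Coloured symbols joined by lines are the 3 replicate numbers, and black bars beside them are mean±s.d. (n=3). Krt8 and Krt18 lie above all 0 h libraries at both later times, Nefl lies below them, and Vim, Nes and Nefm move together with their replicate number while replicate 1 stays lowest.

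Krt8 encodes the type II keratin of simple epithelia. It lies on chromosome 15 of GRCm38 (chr15:101996698-102004482, minus strand, ENSMUSG00000049382). Krt8 expression in replicates 1, 2 and 3 was 162, 190 and 174 FPKM before dox, 390, 471 and 470.1 after 18 h of dox, and 346, 406 and 476 after 24 h. The 6 later libraries all lay above all 0 h libraries, at 15889 to 23395 reads against 6831 to 8221. The log2 fold-change of Krt8 was 1.34 at 18 h (s.e. 0.122; 95% confidence interval 1.06 to 1.61; limma adjusted p = 0.000671). At 24 h it was 1.21 (s.e. 0.122; 95% confidence interval 0.94 to 1.49; adjusted p = 0.000878). Within replicate numbers the ratio to 0 h was 2.41 to 2.70 at 18 h and 2.14 to 2.73 at 24 h, so every replicate number more than doubled. Without the replicate 1 libraries the log2 fold-changes of Krt8 were 1.37 and 1.27.

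Krt18 encodes the type I partner of Krt8 and is the neighbouring gene, 23.7 kb away on chromosome 15 on the opposite strand (chr15:102028180-102032027, plus strand, ENSMUSG00000023043). Its expression was 153, 181 and 176 FPKM before dox, 272, 332 and 303 after 18 h of dox, and 248, 296 and 321 after 24 h. The later libraries again lay above all 0 h libraries. Krt18 rose by a log2 fold-change of 0.83 at 18 h (s.e. 0.111; limma adjusted p = 0.00402) and 0.76 at 24 h (s.e. 0.111; adjusted p = 0.00453), below the minimum of 1 for a call. The ratio to 0 h within replicate numbers ran from 1.72 to 1.84 at 18 h and from 1.62 to 1.82 at 24 h. Across the 9 libraries Krt8 and Krt18 had a Pearson's r of 0.991 on the log2(FPKM+0.1) scale, a description over libraries that share their time points.

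The pair did not rise in proportion. The ratio of Krt8 FPKM to Krt18 FPKM was 1.06, 1.05 and 0.987 before dox, 1.43, 1.42 and 1.55 after 18 h of dox, and 1.39, 1.37 and 1.48 after 24 h. The 0 h ratios were all below the later ones. The ratio was not tested and is given as a description. Summed over the 4 keratins, type II to type I FPKM was 0.744 to 0.817 before dox, 1.20 to 1.29 after 18 h and 1.16 to 1.24 after 24 h, so that type I transcripts were in excess before dox and type II transcripts after it. A processed pseudogene, Krt8-ps, was at 0.341 to 0.485 FPKM before dox, 0.612 to 0.977 after 18 h and 0.498 to 1.13 after 24 h, and how reads with several alignments were counted is not given in the sources used here.

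Krt19, the other type I keratin of the set (chr11:100140810-100148665, minus strand), gave 45.9, 60.9 and 58.5 FPKM before dox, 43.1, 60.3 and 62.7 after 18 h of dox, and 42.1, 55.1 and 63.4 after 24 h. The groups overlapped at all 3 times. Its log2 fold-change at 18 h was -0.00 with a 95% confidence interval of -0.42 to 0.42 (limma adjusted p = 0.999), or -0.13 to 0.13 with the replicate block. At 24 h it was -0.05 with an interval of -0.47 to 0.37, or -0.18 to 0.08 with the block. The upper ends of the block intervals, 0.13 and 0.08, lie below the lower ends of those of Krt18 in the same fit, 0.71 and 0.63. Krt19 is an alternative partner of Krt8 in many epithelia.

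Krt7, a type II keratin of ducts, bladder and trophoblast (chr15:101411043-101430313, plus strand), was close to the lower end of the measured range, at 80 to 184 reads per library. The FPKM of Krt7 was 0.725, 0.543 and 0.522 before dox, 0.961, 0.705 and 0.914 after 18 h of dox, and 1.03, 0.650 and 0.786 after 24 h. Every replicate number was higher after dox, by 1.30 to 1.75 times at 18 h and 1.20 to 1.51 times at 24 h, but the groups overlapped. Its log2 fold-change was 0.46 at 18 h (s.e. 0.210; limma adjusted p = 0.206, blocked adjusted p = 0.0544) and 0.39 at 24 h (s.e. 0.210; adjusted p = 0.254, blocked adjusted p = 0.0783). An edgeR fit with the block on recovered reads gave adjusted p values of 0.00762 and 0.0177, so the call on Krt7 depends on the test. Without 24 h replicate 1 the 24 h log2 fold-change of Krt7 was 0.24.

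**Figure D2:**
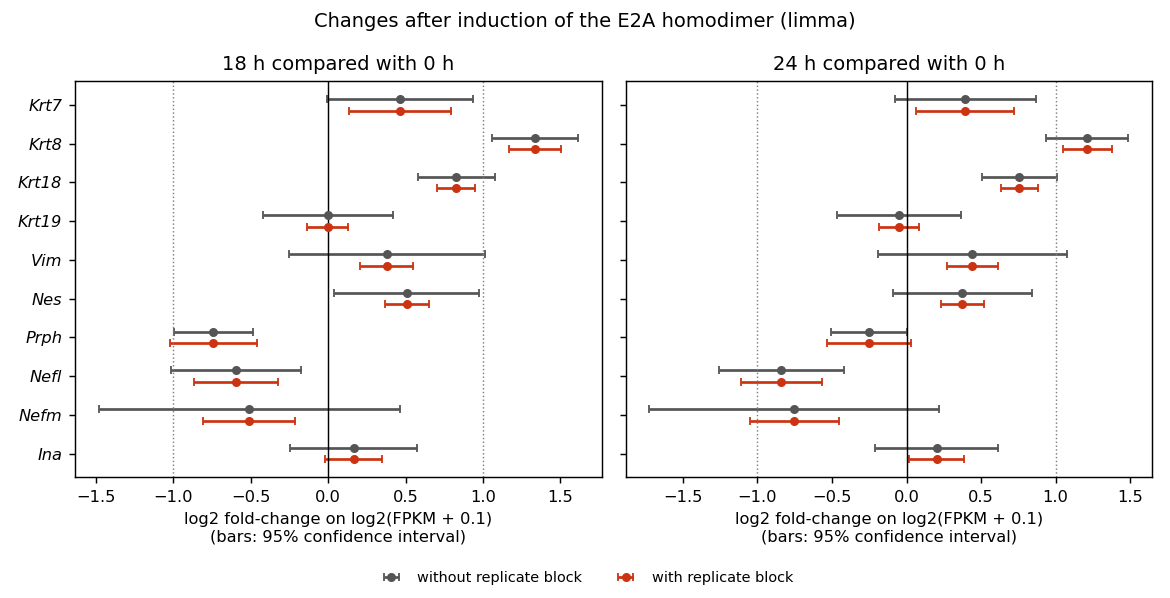
Log2 fold-changes of the 10 members on the log2(FPKM+0.1) scale at 18 h (left) and 24 h (right) compared with 0 h, with 95% confidence intervals, from limma without (grey) and with (red) the replicate block. Dotted lines mark a log2 fold-change of -1 and 1. Krt8 alone exceeds 1, at 1.34 and 1.21, and the intervals of Vim, Nes and Nefm narrow with the block.

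Vim encodes vimentin (chr2:13573927-13582826, plus strand). Its FPKM was 25.4, 49.9 and 45.2 before dox, 37.1, 57.9 and 58.7 after 18 h of dox, and 39.8, 58.7 and 61.6 after 24 h. The groups overlapped because replicate 1 was low at every time, yet every replicate number was higher than its own 0 h library, by 1.16 to 1.46 times at 18 h and 1.18 to 1.56 times at 24 h. The log2 fold-change of Vim was 0.38 at 18 h (s.e. 0.281; limma adjusted p = 0.440) and 0.44 at 24 h (s.e. 0.281; adjusted p = 0.337). With the block the s.e. was 0.0729 and the adjusted p values were 0.0129 and 0.00607. In the fit without the block, the log2 fold-changes of Vim were 0.08 and 0.14 without 0 h replicate 1, and the 18 h value was 0.60 without 18 h replicate 1. Without the replicate 1 libraries it was 0.30 (adjusted p = 0.0832) at 18 h and 0.34 (adjusted p = 0.0514) at 24 h.

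Nes, which encodes nestin (chr3:87971078-87980451, plus strand), resembled Vim in its changes from 0 h. Between 18 h and 24 h Nes was higher in 0 of 3 replicate numbers, and Vim in 3 of 3. Nes FPKM was 28.6, 42.8 and 36.7 before dox, 40.9, 58.0 and 54.7 after 18 h of dox, and 34.6, 52.6 and 54.1 after 24 h. Again the groups overlapped through replicate 1 while each replicate number was higher after dox, by 1.36 to 1.49 times at 18 h and 1.21 to 1.47 times at 24 h. The log2 fold-change of Nes was 0.51 at 18 h (s.e. 0.208; limma adjusted p = 0.165, blocked adjusted p = 0.00247; DESeq2 without the block, adjusted p = 0.0391) and 0.38 at 24 h (s.e. 0.208; adjusted p = 0.270, blocked adjusted p = 0.00543). Without the replicate 1 libraries it was 0.51 (adjusted p = 0.0445) and 0.43 (adjusted p = 0.0517). In the fit without the block, the 24 h value of Nes was 0.22 without 0 h replicate 1 and 0.58 without 24 h replicate 1. Other progenitor and neuronal markers were measured beside it. Of 15 such genes tested by limma, 0 were called at 18 h (7 had an unadjusted p below 0.05, and edgeR and DESeq2 each called Sox1 and Neurod4) and 4 were called as higher at 24 h (Sox1, Fabp7, Neurod4 and Nhlh1). Of all genes tested, limma called 2.06% at 18 h and 2.9% at 24 h in either direction. With the block, limma also called Sox1 at 18 h, at a log2 fold-change of 1.39 (adjusted p = 0.0541, blocked adjusted p = 0.00754). By the adjusted p alone, limma passed 0 as higher and 1 as lower at 18 h, and 4 as higher and 0 as lower at 24 h. For all genes the shares were 4.27% higher and 3.72% lower at 18 h, and 6.52% and 5.11% at 24 h. With the block limma passed 2 of the 15 as higher and 3 as lower after 18 h of dox, then 5 as higher and 2 as lower after 24 h. The blocked fit passed 10.8% of all genes as higher and 10.7% as lower at 18 h, and 13.6% and 12.5% at 24 h. Without the block, the 1 lower gene of the 15 was Stmn2, a neuronal microtubule regulator, at a log2 fold-change of -0.38 (adjusted p = 0.0231). Gap43, a gene of growing axons, had log2 fold-changes of -0.37 (adjusted p = 0.211, blocked adjusted p = 0.00373) and -0.52 (adjusted p = 0.0798, blocked adjusted p = 0.000975), and Elavl3 had -0.30 at 18 h (adjusted p = 0.335, blocked adjusted p = 0.0341). Rbfox3, a gene of mature neurons, went from 0.224 FPKM on average before dox to 0.0920 after 18 h and 0.0842 after 24 h. It was called by edgeR and DESeq2 at 24 h and by edgeR with the block at both times, and the latter fit also called Hes5 at 24 h. Their summed FPKM was 94.3 to 103 before dox, 99.7 to 115 after 18 h and 106 to 126 after 24 h. The neuronal tubulin gene Tubb3 made up much of this sum, with 41.5, 58.7 and 63.1 FPKM on average and log2 fold-changes of 0.49 (limma adjusted p = 0.124, blocked adjusted p = 0.00167) and 0.59 (adjusted p = 0.0638, blocked adjusted p = 0.000739). Without Tubb3 the list summed to 53.9 to 59.3, 43.7 to 48.8 and 45.9 to 52.4 FPKM at the 3 times, both later ranges lying below that before dox. Most of this remainder came from Stmn2 (27.9, 21.5 and 23.2 FPKM on average) and Gap43 (21.1, 16.4 and 14.7). The 4 genes called as higher at 24 h weighed little in it, the highest of them then being Sox1 at 2.46 FPKM on average. The sum therefore does not describe the list as a whole. The paper's methods describe ESCs maintained on gelatinised flasks. Fibroblast and feeder-cell markers, a further source of vimentin, summed to 29.0 to 58.9, 45.5 to 95.5 and 48.0 to 89.0 FPKM at the 3 times, mostly from the smooth muscle actin gene Acta2. Without Acta2 they summed to 9.44 to 17.4, 9.67 to 15.7 and 10.9 to 15.6 FPKM. Of the 10 tested Pdgfrb was called at 24 h and 0 were called at 18 h by limma, edgeR or DESeq2 without the block (3 had an unadjusted limma p below 0.05). The limma shares of all genes called were 2.9% at 24 h and 2.06% at 18 h. With the block, limma and edgeR each called Acta2 at 18 h. Acta2 averaged 30.5, 62.2 and 56.6 FPKM at the 3 times, with a log2 fold-change of 1.01 at 18 h (limma adjusted p = 0.130, blocked adjusted p = 0.000317). By the adjusted p alone, limma passed 2 as higher (Pdgfrb and Twist1) and 1 as lower (Thy1, with 2.08, 1.21 and 1.21 FPKM; adjusted p = 0.0494) at 24 h, and with the block 3 as higher and 2 as lower (Thy1 and Dcn). At 18 h it passed 0 without the block, and 3 as higher and 1 as lower with it. Over all genes the shares were 6.52% higher and 5.11% lower at 24 h, and 4.27% and 3.72% at 18 h. With the block they were 13.6% and 12.5% at 24 h, and 10.8% and 10.7% at 18 h. Col1a1 and Col1a2, which encode the chains of type I collagen, passed at neither time, with or without the block. Neurog2 and Dcx of the first list and Postn, Lum and Fap of the second averaged below 0.1 FPKM and were not tested. The part of these cell types in the levels of Vim and Nes was not tested.

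The neuronal filament genes did not move as a group. Prph (chr15:99055174-99058978, plus strand), the peripherin gene, was lowest at 18 h. Its FPKM was 10.8, 8.87 and 9.42 before dox, 5.35, 6.58 and 5.36 after 18 h of dox, and 7.47, 7.88 and 9.02 after 24 h. All 18 h libraries lay below those of both other times, and the 24 h and 0 h libraries overlapped. Prph fell by 0.74 on the log2 scale at 18 h (s.e. 0.114; limma adjusted p = 0.00683, blocked adjusted p = 0.00710). The 24 h value was -0.25 (s.e. 0.114; adjusted p = 0.185, blocked adjusted p = 0.169). Without the replicate 1 libraries the 18 h value was -0.61 (adjusted p = 0.0654), so the call was lost in that smaller set.

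Nefl, the light neurofilament subunit (chr14:68083863-68089095, plus strand), gave 11.1, 16.0 and 11.5 FPKM before dox, 6.70, 9.02 and 9.64 after 18 h of dox, and 5.78, 7.48 and 8.06 after 24 h. Every library after dox was below every 0 h library. Its log2 fold-change was -0.60 at 18 h (s.e. 0.186; limma adjusted p = 0.0827, blocked adjusted p = 0.0130) and -0.84 at 24 h (s.e. 0.186; adjusted p = 0.0221, blocked adjusted p = 0.00316). Without 0 h replicate 2, 24 h replicate 1 or 24 h replicate 2, the 24 h adjusted p of Nefl was 0.0512, 0.0561 and 0.0610, with log2 fold-changes of -0.68, -0.70 and -0.88. Without the replicate 1 libraries the log2 fold-changes of Nefl were -0.53 (adjusted p = 0.131) and -0.79 (adjusted p = 0.0491). On recovered reads without the block, edgeR and DESeq2 gave Nefl adjusted p values of 0.0384 and 0.00680 at 18 h. The ratio to 0 h within replicate numbers was 0.566 to 0.840 at 18 h and 0.469 to 0.703 at 24 h.

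Nefm, the medium subunit (chr14:68082590-68124846, minus strand), was expressed at lower levels, with 99 to 359 reads per library. The FPKM of Nefm was 1.23, 2.59 and 2.69 before dox, 0.847, 1.64 and 2.0 after 18 h of dox, and 0.674, 1.21 and 1.96 after 24 h. The groups overlapped, with replicate 1 lowest each time, but each replicate number was lower after dox, at 0.633 to 0.745 of its 0 h level at 18 h and 0.469 to 0.728 at 24 h. The log2 fold-change of Nefm was -0.51 at 18 h (s.e. 0.432; limma adjusted p = 0.504, blocked adjusted p = 0.0293) and -0.75 at 24 h (s.e. 0.432; adjusted p = 0.287, blocked adjusted p = 0.00634). Without the replicate 1 libraries it was -0.52 (adjusted p = 0.269) and -0.74 (adjusted p = 0.127). In the fit without the block, the 18 h value of Nefm was -0.86 without 0 h replicate 1, -0.32 without 0 h replicate 3 and -0.17 without 18 h replicate 1, and the 24 h value was -0.39 without 24 h replicate 1. The annotated exons of Nefl and Nefm share 1108 bases on opposite strands. The libraries were made with a stranded kit, but whether strand was used in the counting is not given in the sources used here, so reads from the shared bases may be split between both genes.

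Ina, the α-internexin gene (chr19:47014698-47025327, plus strand), differed from the neurofilament subunits. Its FPKM was 21.5, 20.4 and 15.0 before dox, 25.2, 20.1 and 18.3 after 18 h of dox, and 27.1, 19.8 and 18.7 after 24 h. The groups overlapped, and 2 of 3 replicate numbers were higher after dox. The log2 fold-change of Ina was 0.17 at 18 h (95% confidence interval -0.25 to 0.58; limma adjusted p = 0.613, blocked adjusted p = 0.172) and 0.20 at 24 h (95% confidence interval -0.21 to 0.61; adjusted p = 0.508, blocked adjusted p = 0.0989). The edgeR fit with the block on recovered reads gave an adjusted p of 0.0321 at 24 h. In limma without the block, the 18 h value of Ina was 0.27 without 0 h replicate 1, 0.00 without 0 h replicate 3, 0.04 without 18 h replicate 1 and 0.26 without 18 h replicate 3. The 24 h value was 0.04 without 0 h replicate 3 or without 24 h replicate 1, and 0.30 without 24 h replicate 3. Its exons share 456 bases with Nt5c2, a nucleotidase gene on the opposite strand, which was at 12.4, 11.1 and 9.64 FPKM on average at the 3 times.

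The make-up of the filament transcripts shifted towards the Krt8 and Krt18 pair. The summed FPKM of the 10 genes was 461 to 572 before dox, 823 to 1017 after 18 h and 753 to 1015 after 24 h. Krt8 and Krt18 together made up 64.7% to 68.5% of this sum before dox, 78.4% to 80.5% after 18 h and 77.6% to 79.0% after 24 h. The share of the 4 neuronal genes was 7.28% to 9.69%, 3.59% to 4.63% and 3.72% to 5.44%, and neither later range overlapped that at 0 h. In absolute terms the neuronal sum moved less, from 38.5 to 47.8 FPKM at 0 h to 35.3 to 38.1 at 18 h and 36.4 to 41.0 at 24 h. Vim and Nes made up 11.7% to 16.2%, 9.47% to 11.5% and 9.88% to 12.3% of the sum, and their share at 24 h overlapped that at 0 h.

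**Figure D3:**
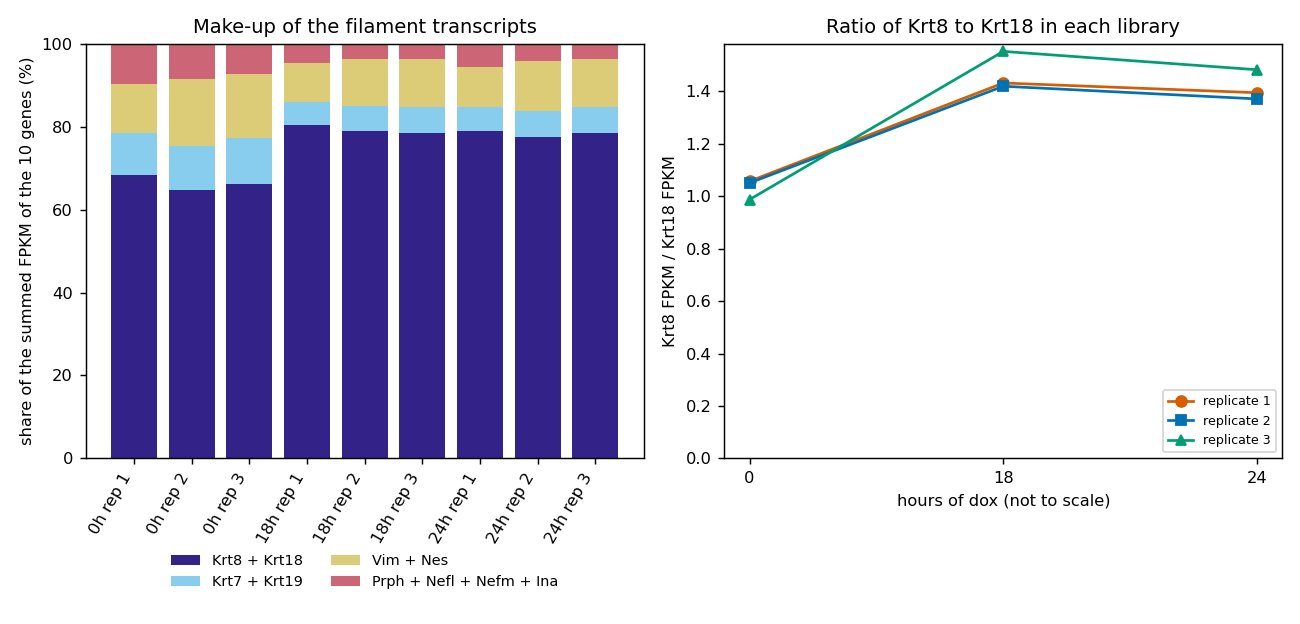
Left, share of the summed FPKM of the 10 genes taken by each family in each of the 9 libraries (percent, stacked to 100). Right, ratio of Krt8 FPKM to Krt18 FPKM at 0, 18 and 24 h of dox in each replicate number. The Krt8 and Krt18 share is 64.7% to 68.5% at 0 h and at least 77.6% later, and the ratio is at most 1.06 at 0 h and at least 1.37 later.

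Between 18 h and 24 h no member passed the adjusted p by limma, with or without the block, and only 0.0223% of all genes tested did without it. Prph had the largest difference of the 10, a log2 fold-change of 0.49 (s.e. 0.114; limma adjusted p = 0.563, blocked adjusted p = 0.245), and it was higher at 24 h in 3 of 3 replicate numbers by 1.20 to 1.68 times. By limma, with or without the block, Prph was the 1 member with an unadjusted p below 0.05 in this comparison. With the block, edgeR on recovered reads gave 4 such members (Prph, Krt8, Nes and Nefl). No member passed by edgeR or DESeq2 without the block, and the edgeR fit with the block on recovered reads gave Prph an adjusted p of 0.0477. The Krt8 log2 fold-change between these times was -0.12 (95% confidence interval -0.40 to 0.15) and that of Krt18 was -0.07 (-0.32 to 0.18).

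Replicate number accounted for a shared part of the spread. Krt8, Krt18, Krt19, Vim, Nes, Nefl and Nefm were lowest in replicate 1 at all 3 time points. Krt7 and Ina went the other way and were highest in replicate 1 at all 3, and Prph was lowest there at 18 h and 24 h. Among 11893 genes that averaged 1 FPKM or more, 17.1% were lowest and 16.0% highest in replicate 1 at every time point. Deviations from the time-point means correlated with r of 0.813 to 0.983 across libraries in the 21 pairs drawn from the 7 genes that were lowest, and with r of -0.857 to -0.505 in the 14 pairs of one of these with Krt7 or Ina. These values describe 9 libraries that share replicate numbers, and the 7 genes were grouped after their values were seen. The cause of the replicate pattern was not tested.

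**Figure D4:**
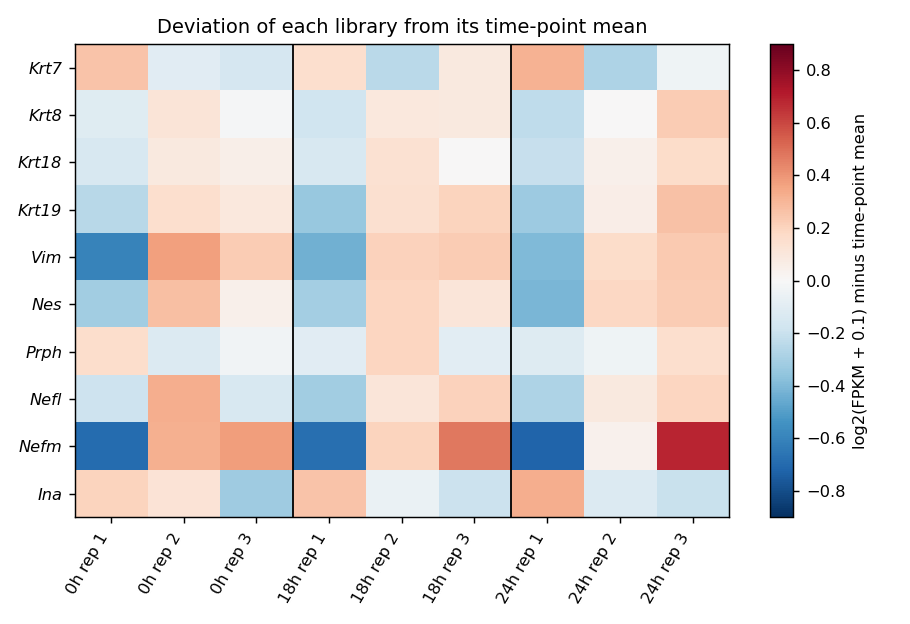
Deviation of each library from the mean of its time point on the log2(FPKM+0.1) scale (colour; red above, blue below) for the 10 members (rows) in the 9 libraries (columns; black lines separate time points). Replicate 1 is blue for Vim, Nes and Nefm and red for Krt7 and Ina at all 3 time points.

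The genes with the most similar pattern over the 9 libraries were looked up for 4 members among 11892 genes, by Pearson's r of log2(FPKM+0.1). For Krt8 these were the lysosomal transporter gene Slc46a3 (r of 0.992), Krt18 (0.991) and Tmppe (0.989). For Krt18 they were Mlec, an endoplasmic reticulum lectin (0.995), Krt8 (0.991) and Tgfbr3, a TGF-β co-receptor (0.989). The closest to Vim were Casc3 (0.987), Ap1m1 (0.982) and Gpm6a (0.982), and the closest to Nes were Zfp334 (0.980), Jmjd4 (0.978) and Birc6 (0.976). At the 3 times in order, Slc46a3 averaged 0.561, 2.25 and 2.20 FPKM, and Tgfbr3 0.572, 1.71 and 1.60. Casc3 changed less, averaging 36.8, 39.5 and 39.8 FPKM. Between deviations from the time-point means, r was 0.990 for Casc3 with Vim. It was 0.912 for Slc46a3 and 0.827 for Tmppe with Krt8, and 0.899 for Tgfbr3 with Krt18.

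Other genes of the intermediate filament family were compared with the share of all genes that passed. Of 40 further keratin genes 39 were in the table, 10 of these were at 0 in all libraries and 10 could be tested, of which 0 passed the adjusted p by limma at either time, with or without the block, 1 had an unadjusted p below 0.05 at 18 h and 0 had one at 24 h. DESeq2 and edgeR also passed 0, and edgeR with the block passed 1 at 18 h (Krt79). Their summed FPKM was 9.89 to 13.7 before dox, 10.8 to 16.1 after 18 h and 9.90 to 16.8 after 24 h, small beside that of Krt8 alone. Of 10 tested genes for other filament proteins, including the lamins and neurofilament heavy subunit, 0 were called by both thresholds with limma, edgeR or DESeq2, and 2 at 18 h and 3 at 24 h had an unadjusted limma p below 0.05. By the adjusted p alone Synm, whose product synemin assembles with vimentin or desmin, was higher, at log2 fold-changes of 0.90 after 18 h (limma adjusted p = 0.0101) and 0.61 after 24 h (adjusted p = 0.0342). Des, the muscle filament gene desmin, was lower, at -0.64 (adjusted p = 0.00962) and -0.78 (adjusted p = 0.00307). Mean FPKM at the 3 times was 1.46, 2.83 and 2.28 for Synm and 2.44, 1.53 and 1.38 for Des. Both were named after their values were seen. With the block, 2 of the 10 were higher and 2 were lower by the adjusted p alone at each time. The blocked shares of all genes were 10.8% higher and 10.7% lower at 18 h, and 13.6% and 12.5% at 24 h. At 2.06% and 2.90% of all genes called by both thresholds, 0 of 10 is near the share of all genes, and 1 higher and 1 lower of 10 are too few genes to be set apart from 4.27% and 3.72% of all genes at 18 h and 6.52% and 5.11% at 24 h.

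Of the genes for proteins that anchor or bind filaments, 0 of 17 tested were called by limma, edgeR or DESeq2, which is near the 2.06% and 2.90% of all genes, with 9 at 18 h and 8 at 24 h below an unadjusted limma p of 0.05. By the adjusted p alone 1 was higher and 2 were lower at 18 h, where 4.27% and 3.72% of all genes were, and 2 were higher and 4 lower at 24 h, where 6.52% and 5.11% of all genes were. With the block 4 were higher and 2 lower at 18 h, and 2 were higher and 5 lower at 24 h. The blocked shares of all genes were 10.8% higher and 10.7% lower at 18 h, and 13.6% and 12.5% at 24 h. Dsp, whose product desmoplakin ties keratin filaments to desmosomes, was higher at both times, with log2 fold-changes of 0.58 (limma adjusted p = 0.0432) and 0.70 (adjusted p = 0.0175) and mean FPKM of 14.7, 22.0 and 24.0. The desmosomal cadherin gene Dsg2 was lower, at -0.55 (adjusted p = 0.0467) and -0.53 (adjusted p = 0.0429), with 10.5, 7.18 and 7.28 FPKM. These too were named after their values were seen.

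Krt8, Krt18 and Krt7 are also markers of trophectoderm, the outer epithelium of the blastocyst. Of 11 other trophectoderm markers tested by limma, 5 were called as higher at 18 h (Cdx2, Hand1, Esx1, Plac1 and Fgfr2) and 4 at 24 h (the same without Plac1), and 0 were called as lower, against the 2.06% and 2.90% of all genes called in either direction. At 24 h edgeR and DESeq2 also called Tfap2c, whose limma log2 fold-change of 0.998 lay just below the threshold. By the adjusted p alone, limma passed 5 as higher and 0 as lower at 18 h (with the block 6 and 0, Tfap2c being added), and 5 as higher and 1 as lower at 24 h with or without the block. The 1 lower was Tead4, a transcription factor of trophectoderm, at a log2 fold-change of -0.53 (adjusted p = 0.0419) and 3.79, 3.01 and 2.62 FPKM. Over all genes, 4.27% were higher and 3.72% lower by the adjusted p alone at 18 h, and 6.52% and 5.11% at 24 h. With the block these shares were 10.8% and 10.7%, then 13.6% and 12.5%. The summed FPKM of the trophectoderm list without the keratins was 15.5 to 17.9 before dox, 33.6 to 39.4 after 18 h and 37.2 to 44.8 after 24 h. Hand1, a transcription factor of trophoblast and mesoderm, averaged 1.22, 9.20 and 11.6 FPKM, and Cdx2, which specifies trophectoderm, averaged 0.476, 2.18 and 3.44. Tpbpa, a marker of later trophoblast, was listed at 0 in all libraries and Elf5 averaged below 0.1 FPKM. Of 12 tested primitive endoderm markers, another epithelium that expresses this keratin pair, 0 were called by limma with or without the block, or by edgeR or DESeq2 without it, and 3 were higher by the adjusted p alone at both times (Lamb1, Col4a1 and Col4a2), with 4 at 18 h and 5 at 24 h below an unadjusted p of 0.05. The share of all genes called was 2.06% at 18 h and 2.90% at 24 h, and 4.27% and 6.52% were higher by the adjusted p alone. With the block 4 of the 12 were higher, Lama1 being added (blocked adjusted p = 0.0440 and 0.0174), and 1 was lower, Amn (0.0270 and 0.0299), at both times. The blocked shares of all genes were 10.8% higher and 10.7% lower at 18 h, and 13.6% and 12.5% at 24 h. The sum of the primitive endoderm markers was 52.2 to 56.7 FPKM before dox, 65.8 to 75.5 after 18 h and 66.0 to 69.7 after 24 h. Most of it came from Lamb1 (19.5, 22.9 and 22.6 FPKM on average), Col4a1 (15.9, 23.7 and 21.2) and Col4a2 (9.61, 15.6 and 14.3). The transcription factor genes Gata4 (0.175, 0.137 and 0.152), Gata6 (0.315, 0.372 and 0.333) and Sox17 (0.110, 0.141 and 0.170) were low. By limma they passed the adjusted p at neither time, with or without the block. Ttr was listed at 0 in all libraries, and Sox7, Hnf4a and Afp averaged below 0.1 FPKM and were not tested by limma. On recovered reads edgeR with the block called Amn and Sox7 at 18 h and Foxa2 and Sox7 at 24 h. At the 3 times these averaged 0.674, 0.333 and 0.343 FPKM for Amn, 0.158, 0.0469 and 0.0663 for Sox7, and 0.0905, 0.111 and 0.199 for Foxa2. The part of these cell types in the keratin levels was not tested.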

How the data were processed

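The authors prepared stranded polyadenylated RNA libraries, which were run on a HiSeq4000 instrument and mapped to GRCm38 by STAR. Cutadapt 1.9 and edgeR 3.16.5 are named in the submitters' processing notes. They deposited FPKM for 47729 genes (19906 at 0 in all libraries) and a CPM signal scaled to effective library size for 19210. Fold-changes and p-values deposited beside the signal were not used. Dividing the deposited signal by the value of 1 read gave whole reads (within 0.05) for 100% of values. The design planned a count test for counts. As the main table held FPKM, limma 3.58.1 (R 4.3.3; trended eBayes, all 9 libraries, two-sided, Benjamini–Hochberg over 17951 genes) was fitted to log2(FPKM+0.1), with edgeR 4.0.16 and DESeq2 1.42.0 on recovered reads as alternatives. Fits were tested on simulated data.

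Same-numbered libraries deviated together (r of 0.211 to 0.548 in 9 pairs, against -0.399 to 0.110 in 18 others; 11893 genes), so the numbers were taken as pairs. Replicates differed beyond sampling noise (chi-square per degree of freedom 5.39 to 16.4). Members and lists were chosen with earlier results of these data known. By rule the text names the members, called genes of the lists, neighbours and pseudogenes of members, and the 3 genes most like Krt8, Krt18, Vim or Nes; other list genes were named after their values were seen. Alternatives were other pseudocounts, filters, scalings, the block, fewer libraries and other tools. Time points follow the titles and treatment labels, 18 h and 24 h, since the protocol text speaks of 24 h and 48 h. Coordinates come from GENCODE and promoters from RefSeq. Python 3.11.15, pandas 2.3.3 and matplotlib 3.10.9 were used. A few items are not reported here.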

Additional observations from a re-analysis of the deposited data

How the results depend on the processing

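Krt8 was the 1 member called by both thresholds at 18 h and at 24 h, and none was called between 18 h and 24 h, under each alternative run. Members past the adjusted p alone at 18 h numbered 3 by limma without the block, 4 by edgeR without it, 7 with the replicate block, 8 by edgeR with the block and 5 by DESeq2. Over all genes tested, edgeR passed 1160 as higher and 924 as lower of 15648, and DESeq2 1291 and 1159 of 16230. With the block edgeR passed 2743 and 2572 of 16010. The shares for limma are given above. At 24 h the members past it numbered 3, then 6 with the replicate block, 8 by edgeR with the block and 2 to 3 with single libraries left out. Of all 16010 genes tested, edgeR with the block passed 3175 as higher and 2942 as lower at 24 h. Between 18 h and 24 h edgeR with the block passed 1 member in place of 0, beside 149 of all genes as higher and 63 as lower. Over all genes, 369 were called at 18 h, 120 with a pseudocount of 1, 210 with a mean FPKM of at least 1, 760 by edgeR with the block, 224 to 428 with single libraries left out, and 235 without the 3 replicate 1 libraries, a choice made after seeing the data. The same counts at 24 h were 521, 151, 265, 929, 333 to 544 and 335. Between 18 h and 24 h, 4 genes were called, 0 with a pseudocount of 1, with a mean FPKM of at least 1, by edgeR or without replicate 1, 1 with a pseudocount of 0.01, 10 by edgeR with the block, 2 by DESeq2, and 0 to 8 with single libraries left out.

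The sign of Krt19 was not stable at 18 h. Its log2 fold-change was 0.0547 with quantile normalization, 0.0432 without replicate 1, 0.00755 by edgeR, 0.00414 by DESeq2 and -0.127 to 0.169 with single libraries left out. At 24 h it was 0.0429 with quantile normalization and -0.183 to 0.112 with single libraries left out. Between 18 h and 24 h, Ina was -0.00404 with median centring. With single libraries left out, that comparison ran from -0.226 to 0.0676 for Krt7, -0.152 to 0.0332 for Krt18, -0.220 to 0.114 for Krt19, -0.154 to 0.262 for Vim, -0.287 to 0.0741 for Nes, -0.585 to 0.120 for Nefm and -0.127 to 0.166 for Ina. The cause of these changes was not tested. Beyond the calls named with each gene, the replicate block changed no call of a member.

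Krt7 and Nefm rest on few reads, 80 to 184 and 99 to 359 per library, and the part of counting error in their spread was not tested. The libraries hold whole cultures and the deposited values give no protein levels.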
